A study of Mus musculus with 4 samples.

Results

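The genes of mismatch repair, base excision repair and nucleotide excision repair were followed in ribosome profiling data from whole mouse testes at day 10. The 34 genes were taken as 3 groups, 5 of mismatch repair, 16 of base excision repair and 13 of nucleotide excision repair, and all 34 were present among the 14984 genes of the deposited table. Ribosome profiling reads the stretches of mRNA that lie under ribosomes, so a footprint level reflects both the amount of an mRNA and how heavily it is translated, and the 2 cannot be told apart without RNA libraries, which were not analysed here. There were 2 control samples and 2 Eif5 cKO samples, the latter from mice carrying Eif5fl/fl and Stra8-Cre, which delete Eif5 in germ cells. Eif5 encodes eukaryotic translation initiation factor 5. The labels do not give the genotype of the controls, or say whether each sample is a separate animal. The spread between samples may therefore be technical. The limma p-values below rest on that spread mostly as pooled over all genes tested. The Stra8 promoter is used to drive the Cre recombinase in germ cells, so the design is meant to leave Eif5 in Sertoli, Leydig and other somatic cells. Eif5 was not measured by cell type here, so where it was deleted was not tested.

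Each of the 3 pathways removes a different kind of damaged or wrong DNA from one strand and refills the gap. In mismatch repair a MutS dimer recognises a mispaired base and a MutL dimer starts removal of the new strand. In base excision repair a glycosylase cuts out a single damaged base, the AP endonuclease opens the backbone, and a polymerase and ligase complete a short patch. In nucleotide excision repair a bulky lesion is found by the XPC or DDB2 sensors or by a stalled RNA polymerase, TFIIH unwinds the DNA, and a pair of nucleases cut out an oligonucleotide. Several of the proteins also serve DNA replication, transcription or meiotic recombination, and spermatogonia and the first meiotic cells of the day 10 testis use these processes.

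The 4 libraries held 2225964 to 2934609 recovered reads. The values below are the authors' deposited values, which are read counts divided by 1 factor per library. Eif5 itself, the targeted gene, had values of 365 and 304 in the controls and 173 and 266 in Eif5 cKO, a log2 fold change of -0.63 (SE 0.25) that did not pass (adjusted p = 0.319, limma with Benjamini-Hochberg adjustment). Its groups did not overlap. Differences were tested with limma on log2(value + 1) over 12095 genes, with calls at an adjusted p under 0.05. A log2 fold change is Eif5 cKO minus control on this scale, where the added 1 pulls the change of low genes towards 0. The fitted fold can still exceed the ratio of the mean values, as it did for Ddb2. Of the 34 repair genes, 32 passed the filter on low counts. Tdg and Neil1 did not pass and were not tested. Each gene tested reached the filter's minimum in at least 1 library of each group, but Ddb2, Nthl1, Smug1 and Fen1 reached it in both controls and in only 1 Eif5 cKO library, and Mutyh in 1 control and both Eif5 cKO libraries. The filter needs 2 libraries, so these genes would not have passed on the other group alone.

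Ddb2, the subunit that recognises ultraviolet lesions for nucleotide excision repair, was the single repair gene called lower in Eif5 cKO testes. No repair gene was called higher. Ddb2 was 8.39-fold lower on the fitted log2(value + 1) scale, with a mean value of 56.8 ± 3.98 in the controls and 7.87 ± 7.91 in Eif5 cKO (n = 2 each, SD). The other 31 genes tested lay between log2 fold changes of -1.68 and 0.63 and did not pass. Among all 12095 genes, 0.604% were called lower and 0.0744% higher, and among the repair genes 1 of 32, or 3.12%, was called lower. That Ddb2 passed was known from an earlier look at these data when the genes were chosen, so the share is a description. The median log2 fold change was -0.01 for mismatch repair, -0.20 for base excision repair and -0.05 for nucleotide excision repair, against 0.0032 over all genes tested. Negative values were found for 19 of the 32 genes, or 59.4%, against 49.7% of all genes.

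**Figure D1:**
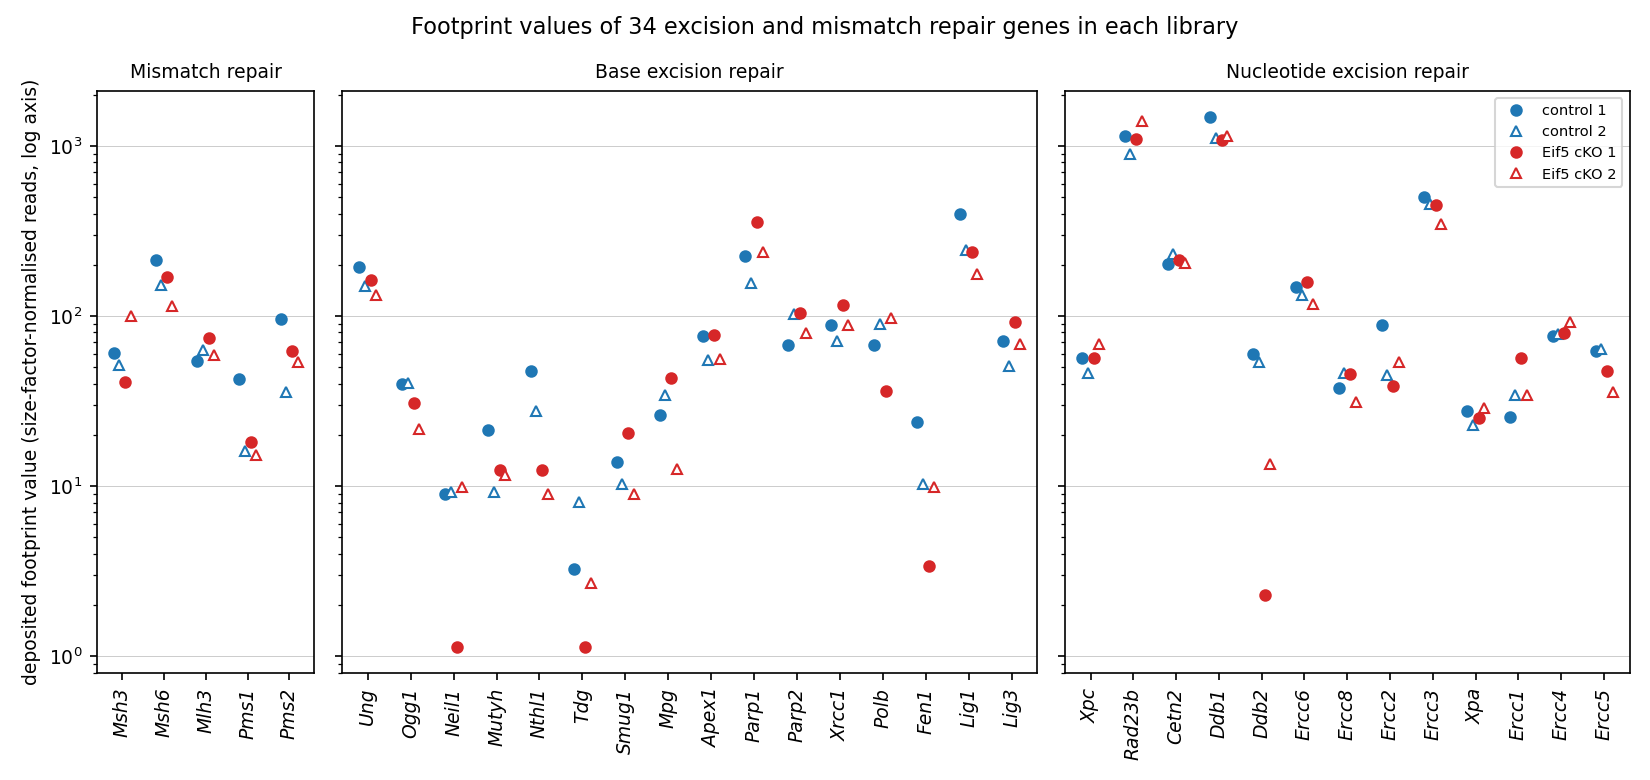
The deposited footprint value of each of the 34 genes is plotted on a log axis for the 4 libraries, with control in blue and Eif5 cKO in red, replicate 1 as filled circles and replicate 2 as open triangles. The red symbols of Ddb2 lie at 2.27 and 13.5, well below the blue ones at 59.6 and 53.9, while for most other genes red and blue symbols intermix.

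Most genes of the 3 pathways did not separate the groups. Control and Eif5 cKO values did not overlap for 10 of the 32 genes tested, or 31.3%, against 40.8% of all genes. They were lower without overlap for 7 genes (Ddb2, Nthl1, Fen1, Lig1, Ogg1, Ercc3 and Ercc5), and higher without overlap for 3 (Parp1, Xpc and Ercc4). Over all genes these shares were 20.9% and 20%. An unadjusted limma p under 0.05 was found for 4 genes (Ddb2, Nthl1, Parp1 and Lig1), or 12.5%, against 10.6% of all genes. These shares of repair genes were near or below those of all genes.

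The summed footprints of the pathways also overlapped between the groups. Mismatch repair genes summed to 468 and 318 in the controls and to 366 and 343 in Eif5 cKO. Base excision repair genes summed to 1375 and 1066 in the controls and to 1309 and 1020.1 in Eif5 cKO. Nucleotide excision repair genes summed to 3898 and 3222 in the controls and to 3355 and 3569 in Eif5 cKO. For each pathway control replicate 1 was the highest library. With 2 samples against 2 an exact permutation test cannot give a two-sided p below 0.33, and it gave 1, 0.667 and 1 for these sums. Most reads of the nucleotide excision repair sum came from Rad23b and Ddb1, which also serve protein degradation. Without them the other 11 genes summed to 1282 and 1210 in the controls and to 1175 and 1026 in Eif5 cKO, with no overlap (p = 0.33, the smallest the exact test can give). That separation rested on Ddb2: with it also left out, the sums were 1223 and 1156 in the controls and 1172 and 1012 in Eif5 cKO, which overlapped.

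In nucleotide excision repair, the proteins that find a lesion in the genome at large were examined first. Ddb2 lies on chromosome 2 at 91211545 to 91237132 (GRCm38). Its value was 59.6 in control replicate 1, 53.9 in control replicate 2, 2.27 in Eif5 cKO replicate 1 and 13.5 in Eif5 cKO replicate 2. Both Eif5 cKO libraries lay far below both controls, and on the value + 1 scale they differed from each other 4.42-fold, against 1.10-fold between the controls. These values came from 73 and 47 reads in the controls and from 2 and 15 reads in Eif5 cKO. The exact 95% Poisson intervals, which cover counting error only, were 57.2 to 91.8 and 34.5 to 62.5 reads in control, and 0.242 to 7.22 and 8.40 to 24.7 reads in Eif5 cKO. The intervals of both Eif5 cKO libraries lay below those of both controls. They are in reads, not scaled for depth, so the small gap between the Eif5 cKO intervals is not read as a difference. The log2 fold change of Ddb2 was -3.07 (SE 0.67, 95% interval -4.42 to -1.72, limma with Benjamini-Hochberg adjustment, adjusted p = 0.0128). That SE drew mostly on the variance trend over all genes (37 prior against 2 residual degrees of freedom), and less on the spread of Ddb2 itself.

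The call of Ddb2 depended on having both controls, while its direction did not. Without control replicate 1 the log2 fold change was -3.00 (limma, adjusted p = 0.638) and without control replicate 2 it was -3.14 (adjusted p = 0.424). Without Eif5 cKO replicate 1, the library with 2 reads, it was -1.997 (adjusted p = 0.0172), and without Eif5 cKO replicate 2 it was -4.14 (adjusted p = 2.48e-06). limma-voom on the recovered reads gave -3.07 (adjusted p = 0.0763), which did not pass, whereas edgeR and DESeq2 gave -2.78 and -2.80 with adjusted p-values of 0.0124 and 0.0240. edgeR, DESeq2 and limma-voom called 0.661%, 0.48% and 0.67% of all genes lower, and the 4 fits with a library left out, in the order above, called 0.0744%, 0.149%, 0.951% and 2.02% of all genes lower. Ddb2 overlaps Acp2, a lysosomal phosphatase gene, in the RefSeq annotation, and whether the counting used strand is not given in the sources used here. Acp2 had values of 180 and 193 in the controls and 136 and 193 in Eif5 cKO, and did not pass (log2 fold change -0.20, SE 0.27).

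Ddb1, the partner of DDB2 in the lesion sensor and the adaptor that joins it to a CUL4 ubiquitin ligase, had values of 1479 and 1118 in the controls and 1087 and 1147 in Eif5 cKO. Its groups overlapped and its log2 fold change was -0.20 (95% interval -0.67 to 0.26). A count of Ddb2 reads per 100 Ddb1 reads does not depend on how libraries are scaled. It was 4.03 and 4.83 in the controls and 0.209 and 1.17 in Eif5 cKO, so the ratio was lower in both Eif5 cKO libraries (p = 0.33, the smallest the exact permutation test can give). The other parts of the ligase were measured as pathway partners. The scaffolds Cul4a and Cul4b had log2 fold changes of 0.04 (SE 0.24) and -0.03 (SE 0.23), and the RING subunit gene Rbx1 had one of -0.87 (SE 0.39, limma adjusted p = 0.406). Rbx1, which serves many cullin ligases, had values of 63.7 and 76.9 in the controls and 36.4 and 39.5 in Eif5 cKO, with no overlap, and did not pass.

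**Figure D2:**
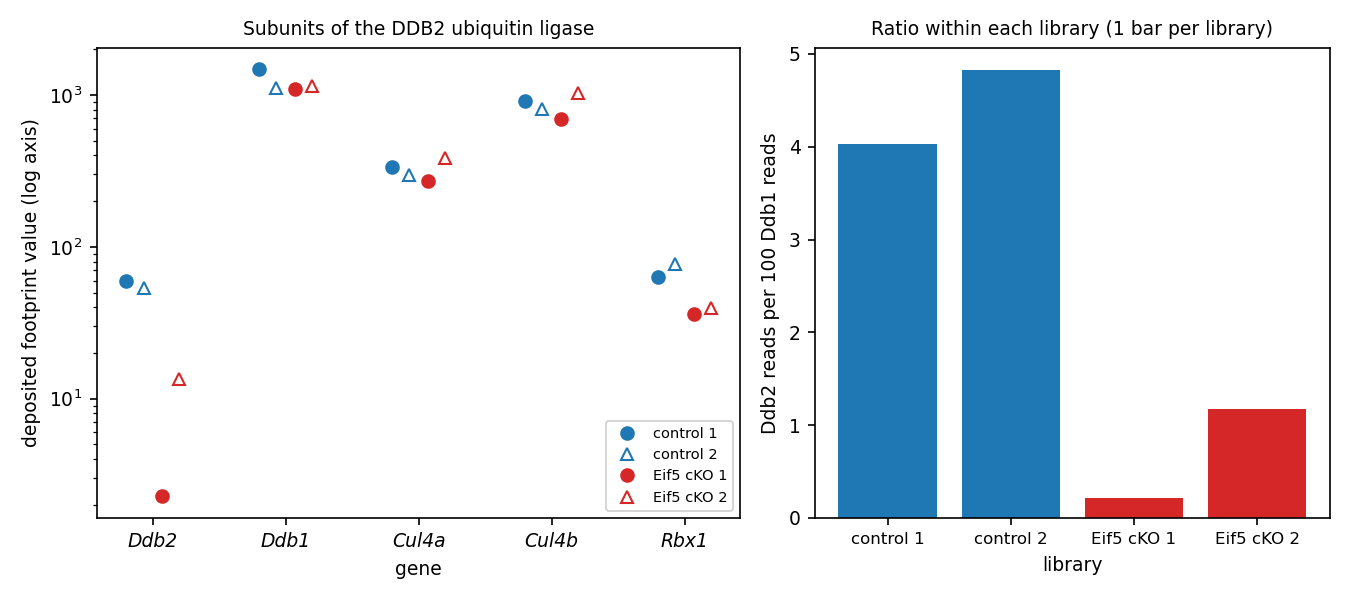
The left panel plots, on a log axis, the deposited footprint values of Ddb2, its partner Ddb1 and the ligase genes Cul4a, Cul4b and Rbx1 in the 4 libraries. The right panel gives Ddb2 reads per 100 Ddb1 reads in each library, one bar each, at 4.03 and 4.83 in the controls and at 0.209 and 1.17 in Eif5 cKO.

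The XPC complex, the other sensor of helix distortion, gave no call. Xpc, its DNA-binding subunit, had values of 56.3 and 45.9 in the controls and 56.8 and 68.2 in Eif5 cKO. The groups were separated by less than 1 unit between control replicate 1 and Eif5 cKO replicate 1, and the log2 fold change was 0.29 (95% interval -0.48 to 1.05). Rad23b, which stabilises XPC and shuttles ubiquitinated proteins to the proteasome, had values of 1138 and 894 in the controls and 1093 and 1396 in Eif5 cKO, a log2 fold change of 0.29 (95% interval -0.17 to 0.76). The centrin gene Cetn2, the third subunit and also a centriole protein, had one of -0.05 (95% interval -0.55 to 0.46). Within libraries, Xpc stood at 4.88 to 5.197 reads per 100 Rad23b reads in all 4. Cetn2 per 100 Rad23b reads varied more, at 17.6 and 25.9 in the controls and 19.5 and 14.7 in Eif5 cKO, with overlap.

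Transcription-coupled repair and TFIIH genes gave no call. Ercc6, which encodes the CSB protein that acts at stalled RNA polymerase, had values of 148 and 132 in the controls and 158 and 118 in Eif5 cKO. Ercc8, which encodes its ubiquitin ligase partner CSA, had values of 37.5 and 45.9 in the controls and 45.4 and 31.4 in Eif5 cKO. For Ercc6 the Eif5 cKO libraries enclosed the controls and for Ercc8 the groups interleaved, and the log2 fold changes were -0.04 (SE 0.28) and -0.13 (SE 0.44). The helicase gene Ercc3 had values of 500.3 and 456 in the controls and 451 and 345 in Eif5 cKO. It was lower without overlap, by a log2 fold change of -0.27 (95% interval -0.74 to 0.19) that did not pass. The second TFIIH helicase gene, Ercc2, had a log2 fold change of -0.46 (95% interval -1.27 to 0.35), and its control replicate 1 stood at 89.0 while the other 3 libraries lay between 38.6 and 53.8.

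The genes that verify the lesion and cut the strand gave no call. The 3′ nuclease gene Ercc5 had values of 62.0 and 64.3 in the controls and 47.7 and 35.9 in Eif5 cKO, a log2 fold change of -0.60 (95% interval -1.39 to 0.20). Ercc1, which holds the 5′ nuclease on DNA, had values of 25.3 and 34.4 in the controls and 56.8 and 34.1 in Eif5 cKO, a log2 fold change of 0.56 (95% interval -0.38 to 1.502). Ercc1 was thus high in Eif5 cKO replicate 1 only, and Ercc5 was lower in both Eif5 cKO libraries; neither passed. Ercc4, the catalytic subunit of the 5′ nuclease and a partner of ERCC1, had values of 75.9 and 78.1 in the controls and 79.5 and 92.4 in Eif5 cKO. Xpa, the scaffold of the incision complex, had values of 27.7 and 23.0 in the controls and 24.99 and 28.7 in Eif5 cKO. Per 100 Ercc4 reads there were 33.3 and 44.1 Ercc1 reads in the controls and 71.4 and 36.9 in Eif5 cKO, with overlap. Ercc4 and Xpa had log2 fold changes of 0.15 (SE 0.33) and 0.08 (SE 0.53).

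**Figure D3:**
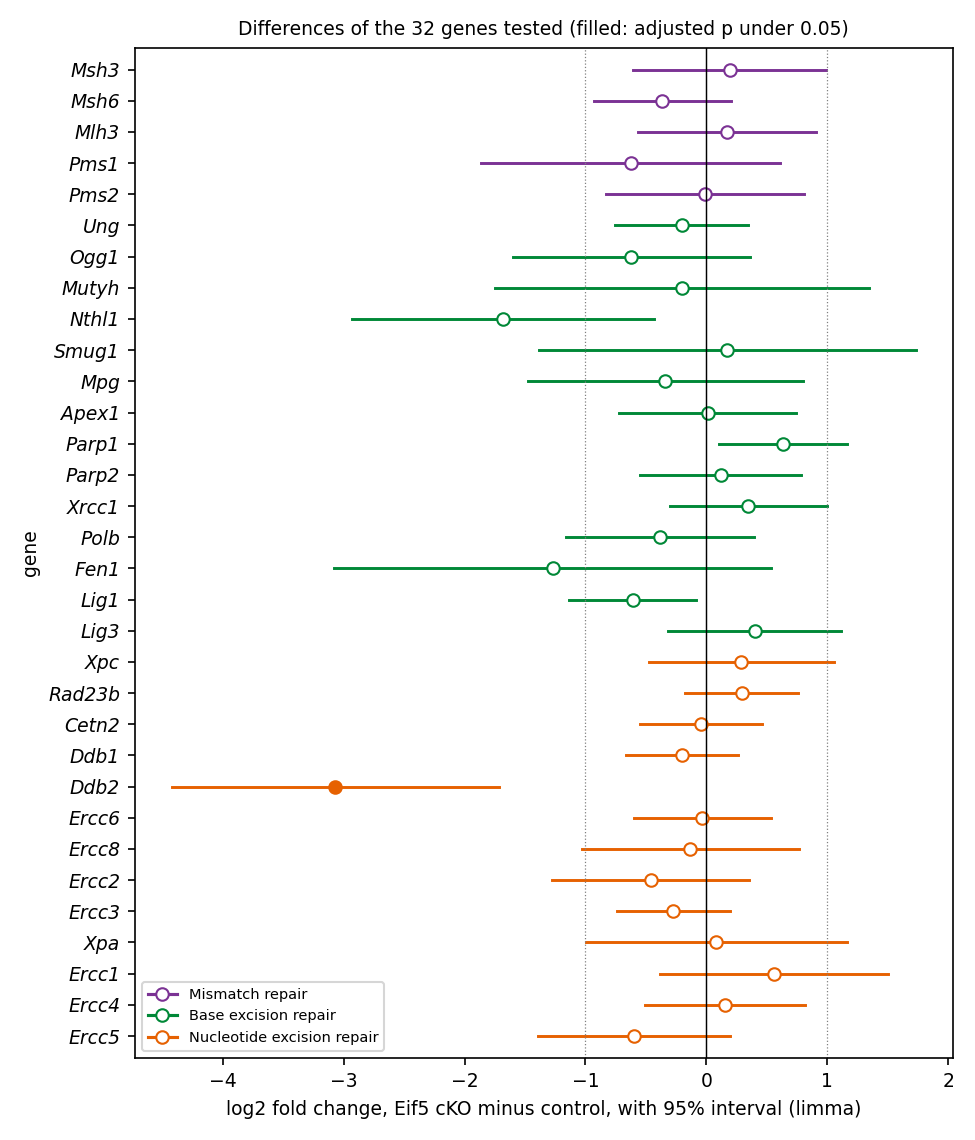
Log2 fold changes of the 32 genes tested (Eif5 cKO minus control, limma on log2(value + 1)) are plotted with their 95% intervals and coloured by pathway, and a filled point marks an adjusted p under 0.05. Ddb2, at -3.07, is the one filled point, and only the intervals of Ddb2, Nthl1, Parp1 and Lig1 leave out 0.

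In base excision repair no gene passed. The glycosylases, which differ in the damaged base they remove, mostly had few reads. Nthl1, which removes oxidised pyrimidines, had values of 47.3 and 27.5 in the controls and 12.5 and 8.97 in Eif5 cKO, from 58, 24, 11 and 10 reads. Both Eif5 cKO libraries were below both controls, and the log2 fold change of -1.68 (SE 0.62, 95% interval -2.93 to -0.43) had a limma adjusted p of 0.267. Ogg1, which removes oxidised guanine, had values of 40.0 and 40.2 in the controls and 30.7 and 21.5 in Eif5 cKO, a log2 fold change of -0.62 (95% interval -1.60 to 0.36). Ung, the uracil glycosylase, had values of 193 and 149 in the controls and 164 and 133 in Eif5 cKO, with overlap and a log2 fold change of -0.20 (95% interval -0.75 to 0.35).

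The remaining glycosylases were too shallow, or too uneven between replicates, for their differences to be read. Mpg, which removes alkylated purines, had values of 26.1 and 34.4 in the controls and 43.2 and 12.6 in Eif5 cKO, so the Eif5 cKO libraries lay on either side of the controls. Mutyh, which removes adenine opposite oxidised guanine, and Smug1, a second uracil glycosylase, had 8 to 26 and 9 to 18 reads per library. Their log2 fold changes were -0.20 (95% interval -1.75 to 1.34) and 0.17 (95% interval -1.39 to 1.73). Of the 2 genes not tested, Neil1, a glycosylase for oxidised bases, had 11 and 8 reads in the controls and 1 and 11 in Eif5 cKO. Tdg, which removes thymine or oxidised methylcytosine opposite guanine, had 4 and 7 reads in the controls and 1 and 3 in Eif5 cKO. RefSeq lists pseudogenes of Tdg, so its reads could be shared with them.

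Downstream of the glycosylases, no gene for sensing the broken strand or for refilling it passed. Parp1, the main poly(ADP-ribose) polymerase that marks DNA breaks, had values of 226 and 156 in the controls and 359 and 237 in Eif5 cKO. It was higher in both Eif5 cKO libraries than in both controls, by a log2 fold change of 0.63 (SE 0.26, 95% interval 0.10 to 1.16, limma adjusted p = 0.343). Parp2, its smaller relative, had values of 67.7 and 102 in the controls and 103 and 79.0 in Eif5 cKO, with overlap and a log2 fold change of 0.12 (SE 0.33) that turned to -0.18 without control replicate 1 and to -0.07 without Eif5 cKO replicate 1. The scaffold gene Xrcc1 had values of 89.0 and 71.2 in the controls and 116 and 88.8 in Eif5 cKO, a log2 fold change of 0.35 (95% interval -0.30 to 0.99). Its partner ligase gene Lig3 had values of 71.0 and 50.5 in the controls and 92.0 and 68.2 in Eif5 cKO, a log2 fold change of 0.40 (95% interval -0.32 to 1.11). In both genes Eif5 cKO replicate 1 was the highest library and control replicate 2 the lowest. The XRCC1 and LIG3 proteins act as a complex, and Xrcc1 stood at 125 to 141 reads per 100 Lig3 reads in all 4 libraries.

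Lig1, the ligase of DNA replication that also closes long repair patches, had values of 399 and 243 in the controls and 236 and 176 in Eif5 cKO. The groups were separated by the small gap between control replicate 2 and Eif5 cKO replicate 1. Its log2 fold change was -0.61 (SE 0.26, 95% interval -1.13 to -0.09, limma adjusted p = 0.364). Per 100 Lig3 reads there were 562 and 482 Lig1 reads in the controls and 257 and 258 in Eif5 cKO, a ratio that was lower in both Eif5 cKO libraries by more than the spread within either group (p = 0.33, the smallest the exact permutation test can give). This pair of ligases was set side by side after their values were seen. Fen1, the flap nuclease shared with replication, had 29 and 9 reads in the controls and 3 and 11 in Eif5 cKO, a log2 fold change of -1.27 whose 95% interval ran from -3.08 to 0.54. Polb, the gap-filling polymerase gene, had values of 67.7 and 89.5 in the controls and 36.4 and 96.9 in Eif5 cKO, a log2 fold change of -0.38 (SE 0.38) that was 0.31 without Eif5 cKO replicate 1. The AP endonuclease gene Apex1 had values of 76.7 and 55.1 in the controls and 77.3 and 55.6 in Eif5 cKO, a log2 fold change of 0.01 (95% interval -0.72 to 0.74).

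**Figure D4:**
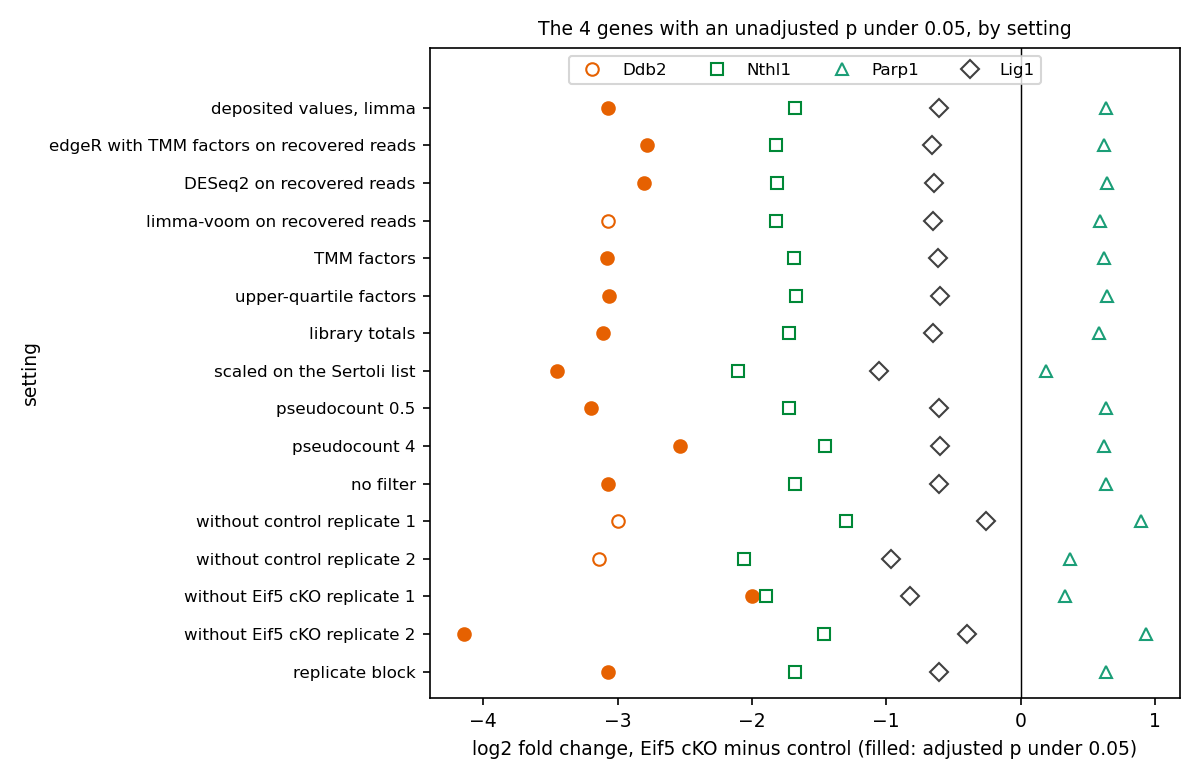
The log2 fold changes of Ddb2, Nthl1, Parp1 and Lig1 are plotted under the fit on deposited values and 15 other settings, with filled symbols for an adjusted p under 0.05. Each gene stays on 1 side of 0 in every fit shown, and Ddb2 alone is filled, in all but 3 of the fits (limma-voom and those without control replicate 1 or 2).

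Mismatch repair genes showed no separation between the groups in any of the 5 genes. The MutS genes both code for partners that decide which mismatch is recognised. Msh6, for single mismatches, had values of 215 and 152 in the controls and 170 and 115 in Eif5 cKO, a log2 fold change of -0.36 (95% interval -0.93 to 0.20). Msh3, for larger loops, had values of 60.4 and 51.7 in the controls and 40.9 and 99.6 in Eif5 cKO, a log2 fold change of 0.19 (95% interval -0.61 to 0.99). The Eif5 cKO libraries of Msh3 lay on either side of the controls, and Msh3 stood at 24.0 and 86.7 reads per 100 Msh6 reads in them, against 28.1 and 34.1 in control.

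Among the MutL genes, Mlh3, whose product acts mainly in meiotic crossing over, had values of 54.7 and 63.1 in the controls and 73.8 and 59.2 in Eif5 cKO. Its log2 fold change was 0.17 (95% interval -0.57 to 0.90). Pms2, the nicking subunit of the main repair dimer, had values of 95.5 and 35.6 in the controls and 62.5 and 53.8 in Eif5 cKO, and Pms1, a MutL subunit of less certain role, had 42.4 and 16.1 in the controls and 18.2 and 15.3 in Eif5 cKO. The Pms2 values of the controls enclosed those of Eif5 cKO and the Pms1 values interleaved, and control replicate 1 was the high library for both. Their log2 fold changes were -0.01 (95% interval -0.83 to 0.81) and -0.63 (95% interval -1.86 to 0.61).

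The replicates of a group often differed as much as the groups did. The 2 replicates of a group were at least 2-fold apart on the value + 1 scale for 9 of the 32 genes, or 28.1%, against 19% of all genes tested. These were Pms1, Pms2, Mutyh and Fen1 between the controls and Msh3, Smug1, Mpg, Polb, Fen1 and Ddb2 between the Eif5 cKO samples. The whole 95% interval lay within 2-fold either side of no change for 14 of the 32 genes, or 43.8%, against 47.1% of all genes. For 13 genes the interval reached to a 2-fold decrease or beyond: Pms1, Ogg1, Mutyh, Nthl1, Smug1, Mpg, Polb, Fen1, Lig1, Ercc8, Ercc2, Ercc5 and Ddb2. For these genes, Ddb2 apart, a 2-fold decrease lay within the interval. A 2-fold increase lay within the interval for Mutyh, Smug1, Parp1, Lig3, Xpc, Xpa and Ercc1.

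Other genes of the same pathways, 46 in 3 lists, gave no call in limma on the deposited values. Unadjusted p-values under 0.05 in these lists are read against the 10.6% of all genes. Of the 15 mismatch repair partners tested, which are largely the clamp, clamp loader, single-strand binding and polymerase delta genes of replication, 0 passed and 13 had a negative sign, with a median log2 fold change of -0.36 and 5 unadjusted p-values under 0.05. The 2 with the smallest p were Rpa2, a subunit of the single-strand binding protein (327 ± 80.5 to 168 ± 28.2; -0.95, SE 0.26, adjusted p = 0.0743), and Pold3, a subunit of polymerase delta (130 ± 9.52 to 63.5 ± 1.497; -1.01, SE 0.31; SD, n = 2 each). Of the 11 base excision repair partners tested, 0 passed and 9 had a negative sign, with a median of -0.26 and 3 unadjusted p-values under 0.05. Aplf, a histone chaperone of break repair (89.2 ± 15.8 to 32.7 ± 6.84; SD, n = 2 each), had a log2 fold change of -1.43 (SE 0.39, limma adjusted p = 0.0780), and Parg, which removes poly(ADP-ribose), had one of -0.53 (SE 0.24). The third of those p-values belonged to Aptx, which repairs aborted ligation ends and had a positive difference without overlap (0.62, SE 0.295); it is named after its value was seen. Of the 17 nucleotide excision repair partners tested, 0 passed and 12 had a negative sign, with a median of -0.23 and 2 unadjusted p-values under 0.05, or 11.8%, which is near the share of all genes. Those 2 were Pole, the leading-strand polymerase gene (-0.79, SE 0.24, limma adjusted p = 0.144), and Rbx1.

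Over the 3 partner lists 34 of 43 genes had a negative sign, against 49.7% of all genes, and limma on the deposited values, edgeR and DESeq2 called 0 of them. Some other settings called partners lower, and none called one higher. limma-voom called Rpa2, limma scaled on library totals called Rpa2 and Aplf, and limma scaled on the Sertoli list called Rpa2, Pold3, Aplf and Pole. limma called Aplf without Eif5 cKO replicate 1 and Rpa2 without Eif5 cKO replicate 2. The meiotic MutS homologues in the mismatch list, Msh4 and Msh5, had 11 and 15, and 33 and 33 reads in control, and 0 and 2, and 6 and 19 reads in Eif5 cKO. Both lay below the controls in each Eif5 cKO library. Msh4 did not pass the filter and was not tested, and Msh5 did not pass the test (log2 fold change -1.47, SE 0.64, limma adjusted p = 0.383). Both were singled out after their values were seen.

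Many germ cell markers, though not all, were also lower in Eif5 cKO. Of 17 tested genes of meiotic prophase 10 were called lower, of 12 pan-germ-cell genes 6, and of 9 genes of differentiating spermatogonia 2. Over all genes the share called lower was 0.604%. The medians of these lists were -1.43, -0.88 and -0.94. The summed meiotic list was 3942 to 4329 in control and 1464 to 1719 in Eif5 cKO, and the pan-germ-cell list 6018 to 6308 and 2755 to 3138. Sycp1, the transverse filament of meiotic chromosomes, was 422 ± 59.7 in the controls and 126 ± 39.4 in Eif5 cKO, and Tex101, a germ cell surface protein, 1173 ± 147 and 298 ± 75.3 (SD, n = 2 each). In the differentiating list the smallest p was that of Stra8, the gene whose promoter drives the Cre. Stra8 was 714 ± 180 in the controls and 244 ± 45.5 in Eif5 cKO (SD, n = 2 each; limma adjusted p = 0.00012). Of 9 genes of undifferentiated spermatogonia 0 passed, with 1 unadjusted p under 0.05 (Taf4b, -0.67, SE 0.27) and summed values of 860 to 996 in the controls and 796 to 831 in Eif5 cKO. No marker measured in these lists was at 0 in both libraries of a group. In footprints of whole testis, fewer cells of a type, less RNA per cell and less translation of that RNA cannot be told apart. The part of cell composition in the Ddb2 result was not tested.

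S-phase genes, which many of the partners share a role with, had 2 of 17 members called lower (Mcm5 and Rrm2). This was 11.8%, against 0.604% of all genes. Values were lower without overlap for 7 and higher without overlap for 1, where all genes had 20.9% and 20%. The median was -0.24. Summed values were 3516 to 4610.1 in the controls and 3194 to 3283 in Eif5 cKO, with no overlap. Somatic markers had 0 calls in either direction, with medians of 0.40 for 15 Sertoli genes, 0.69 for 9 Leydig genes, 0.45 for 10 macrophage genes, -0.20 for 7 peritubular myoid genes, 0.13 for 8 endothelial genes and 0.51 for 4 erythroid genes. Unadjusted limma p-values under 0.05 numbered 6, 6, 2, 0, 0 and 0 in these lists, where all genes had 10.6%. The gene of smallest p in each was Inha (0.92, SE 0.27), Cyp11a1 (0.80, SE 0.24), Adgre1 (0.76, SE 0.30), Cnn1 (-0.35, SE 0.32), Emcn (-0.76, SE 0.55) and Hba-a2 (0.71, SE 0.50). The summed Sertoli list ran from 54390 to 74988 in the controls and from 73274 to 102937 in Eif5 cKO, with overlap, and the Leydig and macrophage sums were higher in both Eif5 cKO libraries (1859 to 2320 against 2970 to 3266, and 1102 to 1278 against 1560 to 1676). Their part in the differences of Parp1, Xrcc1 and Lig3 was not tested.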

How the data were processed

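Ribosome footprints of 4 testis samples were counted per gene. Bowtie2, STAR, featureCounts and the build GRCm38 were named without versions per the submitters' processing notes, and the sources used here give no settings for strand or multi-mapping. The values deposited by the authors are a normalized signal, although their columns are named raw counts. Every value was a whole multiple of 1 read (100% at a relative tolerance of 1e-06), and the divisors equalled recomputed median-of-ratios factors. No column belonged to other samples. Depth was 2225964 to 2934609 reads per library, and counts of a few reads limit the precision of low genes.

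The model, fitted in limma 3.58.1 (R 4.3.3), held group alone. It used log2(value + 1), an intensity trend and the 12095 genes that passed filterByExpr of edgeR 4.0.16 (minimum count 10) on the recovered reads. Tests were two-sided with Benjamini-Hochberg adjustment over all genes tested. The fits had 2 residual and 37 prior degrees of freedom, so the variance of each gene was drawn mostly from the trend over all genes. The limma code was run on simulated reads with 200 changed genes, and the outcome of that run is not reported here. Alternatives were edgeR, DESeq2 1.42.0 and limma-voom on the recovered reads, other scalings, pseudocounts and filters, a replicate block and each library left out. Groups and replicate numbers came from the sample titles.

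The 34 genes, the partner and marker lists and the tests were chosen with earlier results of these data known. The rule allowed all 34 genes, Eif5, called partner genes and the 2 of smallest p in each partner list, and the marker of smallest p in each list. Positions and overlaps came from RefSeq genes of GRCm38, in which all 34 symbols matched. Over all genes tested, the replicate differences of control and of Eif5 cKO were nearly uncorrelated (-0.0465), so numbers were not treated as pairs. With so few samples this cannot exclude a pairing, which the labels do not mention.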

Additional observations from a re-analysis of the deposited data

How the results depend on the processing

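Ddb2 kept its sign in all 15 alternative fits it entered and passed in 12. It did not pass in limma-voom (log2 fold change -3.07), and with each library left out in turn it ran from -4.14 to -1.997. The count of repair genes called lower was 0 in limma-voom and 0 under the stricter filter of at least 50 reads in 2 libraries, which left Ddb2 untested, and it was 0 to 1 with a library left out; no fit called a repair gene higher. Scaling the libraries on the Sertoli list moved the median of all genes to -0.44, raised the calls over all genes to 271, and gave medians of -0.45, -0.63 and -0.49 for mismatch, base excision and nucleotide excision repair. Calls over all genes numbered 10 to 346 with a library left out. The stricter filter gave a base excision repair median of 0.0647. With a library left out the medians ran from -0.61 to 0.0660, from -0.30 to 0.0954 and from -0.16 to 0.0265 for the 3 pathways in this order. Of the 32 genes tested, 20 changed sign in some fit; outside the Sertoli scaling and the left-out libraries this was Apex1 alone. The Sertoli scaling turned the sign of 11 genes, Xrcc1, Lig3, Xpc, Rad23b and Ercc4 among them, and left Parp1 at 0.19. With a library left out, an arm of 1 sample is assumed to vary like the other group. The replicate block called 100 genes, left Ddb2 at -3.07 with a limma adjusted p of 0.00218, and changed no call of a repair gene. The labels do not say whether a shared number marks a pair. Reads of 3 or fewer limit what can be said of Ddb2, Neil1, Tdg and Fen1 in single libraries.

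The summed values were also recomputed under alternatives chosen after seeing the data. The log2 ratio of the Eif5 cKO to the control mean of the sum was -0.15 for mismatch repair, -0.07 for base excision repair and -0.04 for nucleotide excision repair. Scaled on the Sertoli list it was -0.62, -0.54 and -0.49. Leaving out each library in turn gave -0.40 to 0.16, -0.26 to 0.13 and -0.17 to 0.10, so no direction of a sum held over all 4 omissions.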

Other observations

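Of the 34 repair genes, 11 overlap another gene of the deposited table in the RefSeq annotation, and without the counting settings reads in the shared stretch cannot be assigned to either. Fen1 overlaps Tmem258, a subunit gene of the oligosaccharyltransferase, which had 199, 206, 212 and 216 reads in control replicates 1 and 2 and Eif5 cKO replicates 1 and 2, against 29, 9, 3 and 11 for Fen1. Ercc2 overlaps Klc3, a kinesin light chain gene, which had 20 and 2 reads in the controls and 14 and 0 in Eif5 cKO.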
